A study of Mus musculus with 4 samples.

Results

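The genes described here encode 10 factors that travel with RNA polymerase II or handle histones in its path, namely *Supt5*, *Supt6*, *Iws1*, *Supt16*, *Ssrp1*, *Paf1*, *Ctr9*, *Leo1*, *Cdc73* and *Rtf1*. They were taken by gene symbol from a deposited RNA-seq table of 34200 transcripts from 21945 genes, and 12 transcripts in that table belong to them. The cells were NIH/3T3, an immortalised line of mouse fibroblasts, and all of them were transfected with siRNA at 10 nM and incubated for 48 h. The 2 KD libraries came from cells given 2 siRNAs against *Setd2* together, and the 2 WT libraries came from cells given a Scrambled siRNA that targets no gene, so WT here means mock-silenced and not untransfected. Polyadenylated RNA was sequenced in all 4 libraries. The series describes independent transfections of this single line, and which transfection each library came from is not given in the sources used here.

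The table gives a mean and a variance for each transcript over all 4 libraries, KD and WT together, and values of single libraries were not analysed here. The effects, test statistics, p-values and q-values of the KD against WT comparison in the table were made by the authors and were not used. Each level below is therefore the authors' mean converted back to normalised estimated counts, where a normalised estimated count is the number of reads that Kallisto assigns to a transcript after scaling for the size of its library. The depth of the libraries is unknown. The variance limits what any single library can show, because none of 4 values can lie further than 1.5 SDs from their mean, and it also limits how far the mean of 2 libraries can lie from the mean of the other 2. These limits are arithmetic and carry no test. They hold for either direction, so no gene is called higher or lower in KD.

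During elongation, DSIF, a dimer of SPT5 and SPT4, clamps RNA polymerase II on its template and takes part in both pausing and processive transcription. SPT6 binds the elongating polymerase and histones, and IWS1 binds SPT6 and links the polymerase to SETD2, the enzyme that trimethylates lysine 36 of histone H3. FACT, a dimer of SPT16 and SSRP1, takes apart and rebuilds nucleosomes as the polymerase passes. The PAF1 complex, with the subunits PAF1, CTR9, LEO1, CDC73 and, more loosely, RTF1, sits on the same elongating polymerase and is needed for the ubiquitination of histone H2B.

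The label of the cells was checked on marker genes. All 10 fibroblast markers were in the table, with the lowest summed level, 3083 normalised estimated counts, for *Pdgfrb* and the highest for *Fn1*. Of 6 epithelial markers, 2 were in the table and *Epcam* was not, with 135 counts in all. The 3 of 5 immune markers in the table had 476 counts in all, and the 4 of 4 endothelial markers had 107. The *Setd2* transcript, the target of the siRNAs, had a mean of 1844 normalised estimated counts over KD and WT together and a SD over the 4 libraries of 1.15 on the log2 scale, larger than that of 99.8% of the 1000 transcripts nearest to it in mean. The direction of the knockdown cannot be read from these pooled values.

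The start regions of 3 genes are shown because these are genes on which the results below turn: *Supt5*, whose isoforms part in the first intron, *Leo1*, which had the widest spread, and *Ssrp1*, which had the highest level. Each runs 5′ to 3′ from 250 bases before to 50 bases after the RefSeq start of the gene in GRCm38.p6. The *Supt5* window, chr7:28338670-28338969 on the minus strand, has in capitals the first exon of the main isoform, and the bases after it open the intron that the other isoform keeps. In the windows of *Leo1*, chr9:75441274-75441573, and *Ssrp1*, chr2:85037201-85037500, both on the plus strand, capitals mark the letters of the GC box on either strand, 1 of the 6 motifs described next.

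Supt5: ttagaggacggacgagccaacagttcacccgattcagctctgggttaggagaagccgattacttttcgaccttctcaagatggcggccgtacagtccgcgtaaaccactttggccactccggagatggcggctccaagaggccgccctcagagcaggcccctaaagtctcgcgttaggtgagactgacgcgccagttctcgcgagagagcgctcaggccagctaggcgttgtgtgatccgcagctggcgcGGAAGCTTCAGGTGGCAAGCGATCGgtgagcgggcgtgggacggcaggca

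Leo1: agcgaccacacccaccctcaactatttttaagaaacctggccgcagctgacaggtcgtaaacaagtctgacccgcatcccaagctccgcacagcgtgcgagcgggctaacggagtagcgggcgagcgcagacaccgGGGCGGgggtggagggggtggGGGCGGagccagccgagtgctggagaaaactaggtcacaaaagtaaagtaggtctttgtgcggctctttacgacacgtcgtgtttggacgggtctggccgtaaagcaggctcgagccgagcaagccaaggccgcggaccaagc

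Ssrp1: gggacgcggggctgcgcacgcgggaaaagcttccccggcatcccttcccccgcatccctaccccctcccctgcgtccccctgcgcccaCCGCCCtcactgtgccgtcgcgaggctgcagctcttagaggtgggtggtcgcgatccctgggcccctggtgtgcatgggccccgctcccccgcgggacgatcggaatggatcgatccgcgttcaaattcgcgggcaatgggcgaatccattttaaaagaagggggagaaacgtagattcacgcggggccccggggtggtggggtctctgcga

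RefSeq start windows were found for 8 of the 10 genes, all but *Ctr9* and *Iws1*. The RefSeq starts of *Supt5*, *Ssrp1*, *Cdc73* and *Rtf1* were at the start of the measured transcript. Those of *Leo1* and *Paf1* were 12 and 45 bases away, and those of *Supt16* and *Supt6* were 177 and 284 bases downstream of it. The *Supt6* window therefore lies wholly within the span of the measured transcript and holds no bases upstream of its start. The 8 windows were rich in CpG, with 14 CpG dinucleotides in *Paf1* to 54 in *Cdc73* and a median of 29.5, against a median of 7 over all 32851 windows of this length. The GC box, GGGCGG or CCGCCC on the other strand, was in 7 of the 8 windows, all but *Supt6*, and in 35.7% of all windows. The letters of the TATA box, TATAAA or TTTATA, were in 0 of the 8 and in 13.6% of all windows. CGGAAG or CTTCCG, the core bound by ETS factors, was in those of *Supt5*, *Supt16*, *Cdc73* and *Rtf1*, and in 16.9% of all windows. CCAAT or ATTGG was in the window of *Paf1* alone among these genes (37.4% of all windows), CACGTG in that of *Supt16* (7.15%) and ATGGCGG or CCGCCAT, a core of the YY1 motif, in that of *Supt5* (4.05%). A match of CGGAAG can share its first letters with one of GGGCGG or ATGGCGG, and such overlaps were not counted apart. These matches describe the windows, and binding was not measured.

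All 12 transcripts that GENCODE M21 tags as basic for these genes were in the table, so none of them was lost to a filter on low values. The annotation holds 60 transcripts of the 10 genes, of which 29 are annotated as retained introns, and 0 of those 29 were in the table. The table held none of the other transcripts that are not tagged as basic either. *Ssrp1*, with 9 annotated transcripts and 0 retained introns, had only its 1 basic transcript there. Whether the absent transcripts were left out of the index or filtered was not tested, so their absence says nothing about retained introns. *Supt5* and *Iws1* had 2 measured transcripts each, and the other 8 genes had 1. The transcripts were long, from 2003 bases for *Paf1* to 11586 for *Cdc73*, with a median of 4027.5 bases against 2704 for all protein-coding transcripts of the table. Their GC content had a median of 49.7%, against 50.2% for those transcripts.

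**Figure D1:**
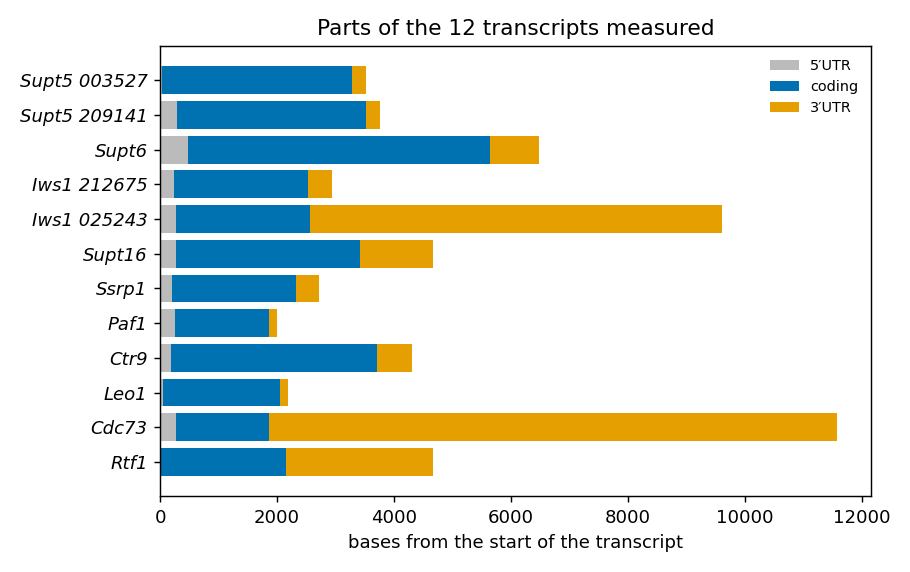
Length in bases of the 5′UTR (grey), the coding part with its stop codon (blue) and the 3′UTR (orange) of each of the 12 measured transcripts in GENCODE M21, with the last 6 digits of the identifier where a gene has 2. The 3′UTRs of *Cdc73* (9721 bases), 1 *Iws1* transcript (7047 bases) and *Rtf1* (2516 bases) are longer than their coding parts, whereas those of *Paf1* and *Leo1* are 138 and 134 bases.

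To compare genes with each other, levels were divided by the length of each transcript and summed over the transcripts of a gene. *Ssrp1* had the highest level per kilobase and *Cdc73* the lowest, 20.7 times apart by whole transcript length, with limits of 18.1 and 23.6 from the variances. Divided by coding length, the same pair was 3.64 times apart (limits of 3.19 and 4.16), so the place of *Cdc73* rests on the length of its annotated 3′UTR. *Ctr9* (1063) then had the lowest value, close to *Leo1* (1103), and limits for that pair were not computed. The counts divided by coding length are those of the whole transcript, so any reads from UTRs raise this measure for genes with long UTRs. In descending order, the levels per kilobase were 6114 for *Ssrp1*, 2994 for *Supt5*, 1646 for *Paf1*, 1434 for *Supt6*, 1013 for *Leo1*, and 947 for *Supt16*. *Ctr9* (869.9), *Iws1* (762), *Rtf1* (688) and *Cdc73* (295) followed. The steps from *Ssrp1* to *Supt5*, from *Supt5* to *Paf1* and from *Rtf1* to *Cdc73* held in each of the 4 libraries at whole length. By coding length the last of these turned, with *Rtf1* at 0.696 times *Cdc73* (limits of 0.571 and 0.850). The 6 steps between *Paf1* and *Rtf1* in this order were within the limits that the spread allows, so neighbours there cannot be placed above or below each other in every library. Among 14399 protein-coding genes, level per kilobase was higher than in 95.7% of genes for *Ssrp1* and in 45.4% for *Cdc73*. Levels that are not divided by length were higher than in 75.7% to 97.8% of all genes of the table.

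**Figure D2:**
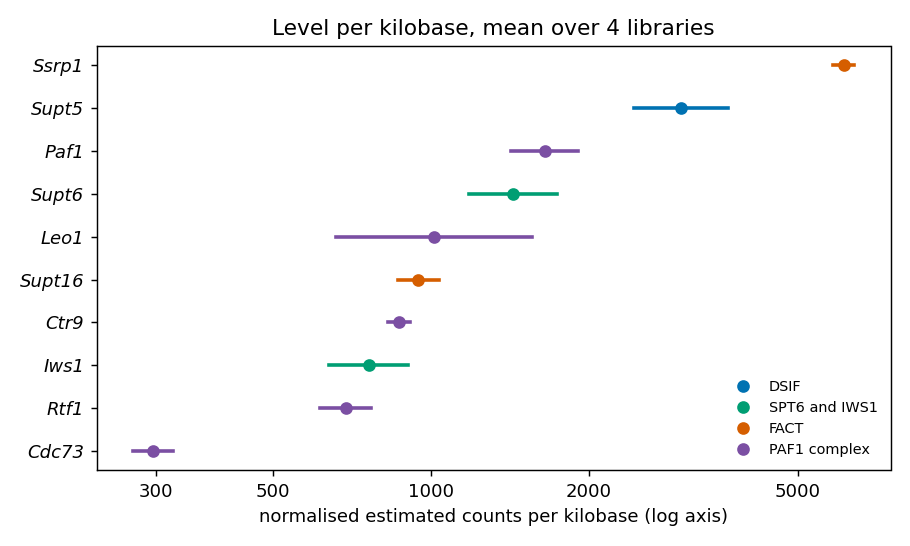
Level of each gene in normalised estimated counts per kilobase (log axis), as a mean over the 4 libraries (points), with the range outside which no library can lie (lines). *Ssrp1* and *Supt5* stand above the others, *Cdc73* stands below by this whole-length measure but not by coding length, and the lines of most genes between them overlap.

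Among the DSIF and SPT6 genes, *Supt5* was measured as 2 isoforms on the minus strand of chromosome 7 that encode the same 1082 residues. ENSMUST00000003527.9 (28314894 to 28338719, 30 exons) had a mean of 9822 normalised estimated counts, and no library can lie below 7939.5 or above 12149.7. ENSMUST00000209141.1 (28314898 to 28338706, 29 exons) keeps the intron from 28338436 to 28338694, 259 bases in the 5′UTR, and had a mean of 744 counts, between 671 and 825 in every library. The spliced isoform therefore made up 93.0% of the *Supt5* level, and between 90.6% and 94.8% in every library. Of its 31-base words, the length Kallisto matches by default, the spliced isoform has 28 that are in no other basic transcript and 0 that are in no other transcript of the full annotation, and the unspliced one has 270 by either count. Which of these sets was indexed is not given in the sources used here. The variance of assigning reads to the unspliced isoform was 193% of its variance over the libraries, so the spread of that isoform was smaller than the uncertainty of its own estimate. Exons of the antisense gene *Gm44709*, on the opposite strand and not in the table, overlap each *Supt5* transcript by 433 bases and share 377 words with it. The partner of SPT5 in DSIF, *Supt4a*, had 5284 counts per kilobase.

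*Supt6* had 1 measured transcript on the minus strand of chromosome 11 (ENSMUST00000002121.4, 78206746 to 78245987, 37 exons, 1726 residues). Its mean was 9304 normalised estimated counts, with limits of 7659.5 and 11301.6 for any library. It shares 212 of its 31-base words with *Sdf2*, a gene on the opposite strand whose exons overlap it by 242 bases and whose summed level was 3801. Per kilobase, *Supt5* was 2.09 times as high as *Supt6*, with limits of 1.40 and 3.12 in any library, so *Supt5* was higher in all 4.

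*Iws1*, on the plus strand of chromosome 18, had 2 isoforms that end in different ways. ENSMUST00000212675.1 (32067768 to 32097519) has an extra exon from 32093539 to 32093697, stops in it and encodes 765 residues, with a 3′UTR of 400 bases. ENSMUST00000025243.4 (32067741 to 32104328) skips that exon, encodes 766 residues and has a 3′UTR of 7047 bases. The extra exon carries 126 coding bases at the end of the first reading frame, where the other isoform has 129 in the last exon. The short isoform had a mean of 1801 normalised estimated counts, between 1501 and 2161 in every library, and the long one had 1424, between 1249 and 1625. By these levels the short isoform made up 55.8% of *Iws1*, and since the limits run from 48.0% to 63.4%, it cannot be called the larger in every library. Per kilobase its share was 80.5%, because the long isoform is 9613 bases and the short one 2936. Of its 31-base words, the short isoform has 188 (6.47%) that are in no other basic transcript, and the long one has 6725 (70.2%). In no other transcript of the full annotation are 2.00% and 59.9% of them. The long isoform shares 249 words with other genes. *Supt6* stood 1.88 times above its partner *Iws1* per kilobase of whole transcript, with limits of 1.30 and 2.72. By coding length the levels per kilobase were closer, 1797 for *Supt6* and 1405 for *Iws1*, with any reads from the 3′UTRs still counted. Limits for that ratio were not computed, so by coding length the order in every library is not known.

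The FACT subunits were far apart. *Ssrp1* (ENSMUST00000168266.7, plus strand of chromosome 2, 85037451 to 85047106, 17 exons, 708 residues) had a mean of 16636 normalised estimated counts, between 15886 and 17421 in every library. *Supt16* (ENSMUST00000046709.8, minus strand of chromosome 14, 52160414 to 52197416, 26 exons, 1047 residues) had 4425, between 4043 and 4843. Per kilobase *Ssrp1* was 6.46 times as high as *Supt16*, and between 5.63 and 7.40 times as high in every library. All 31-base words of *Ssrp1* are absent from other genes. *Supt16* shares 21.6% of its words with *Rpgrip1*, which lies on the opposite strand, overlaps its exons by 1057 bases and had a summed level of 12.3. Whether strand was used in the assignment of reads is not given in the sources used here, and the part of these overlaps in the levels was not tested.

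The 5 genes of the PAF1 complex covered a 5.57-fold range per kilobase of whole transcript, from *Paf1* at the top to *Cdc73* at the bottom. By coding length the range was 2.02-fold, with *Cdc73* at the top and *Ctr9* (1063) at the bottom. *Leo1* (1103) was close to *Ctr9* there, and without limits for that pair the lower one in every library is not known. *Paf1* (ENSMUST00000003529.8, plus strand of chromosome 7, 28392951 to 28399388, 14 exons, 535 residues), the subunit that names the complex, had a mean of 3298 normalised estimated counts, between 2852 and 3813 in every library. *Ctr9* (ENSMUST00000005749.5, plus strand of chromosome 7, 111028951 to 111056377, 25 exons, 1173 residues), the scaffold of the complex, had 3741, between 3571 and 3918. *Rtf1* (ENSMUST00000028767.8, plus strand of chromosome 2, 119675068 to 119735407, 18 exons, 715 residues), which carries the histone modification domain, had 3210.2, between 2869.9 and 3591.

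These 3 genes had similar totals of counts, but their transcripts differ in length. Per kilobase, *Paf1* was 1.89 times as high as *Ctr9*, with limits of 1.56 and 2.29, and 2.39 times as high as *Rtf1*, with limits of 1.85 and 3.09. By coding length *Paf1* was 1.37 times as high as *Rtf1*, with limits of 1.06 and 1.78. *Cdc73* (ENSMUST00000018337.8, minus strand of chromosome 1, 143598800 to 143702893, 17 exons, 531 residues), which encodes the tumour suppressor parafibromin, had a mean of 3424 normalised estimated counts, between 3139 and 3734 in every library. By whole length its level per kilobase was the lowest of the complex, with *Paf1* 5.57 times as high (limits of 4.42 and 7.03). By coding length *Paf1* was 0.956 times as high as *Cdc73*, and with limits of 0.758 and 1.21 neither can be placed above the other in every library. The *Cdc73* transcript is 11586 bases long with a coding part of 1593, and its place in the order of the 10 genes moved from 10 to 3 between these lengths. The same counts were divided by either length, so any reads from its 3′UTR raise the value by coding length. Whether the cells used the whole annotated 3′UTR was not tested.

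*Leo1* (ENSMUST00000048937.5, plus strand of chromosome 9, 75441536 to 75466432, 12 exons, 667 residues) had the lowest summed level of the 10 genes, with a mean of 2208 normalised estimated counts. The limits on a single library, 1438 and 3389, were the furthest apart of the 12 transcripts as a ratio, 2.36-fold. Its exons contain 9 words that recur in other genes, all in the pseudogene *Gm7972*, whose summed level was 27.6. *Rtf1* has 50 words that recur in other genes, *Cdc73* 28, *Ctr9* 18 and *Paf1* 0. *Paf1* was 1.63 times as high as *Leo1* per kilobase, and with limits of 0.916 and 2.89 the order of these subunits could differ between libraries.

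To see how far apart the KD and WT means of these libraries can lie, the variance over the 4 libraries was turned into the largest difference those means could have. This largest difference bounds the observed means of 2 libraries each, and not the effect of the knockdown itself. For *Ssrp1* and *Ctr9* it was 0.08 on the log2 scale, which is a level up to 5.47% and 5.50% higher in one group than in the other. It was 0.14 for *Cdc73*, 0.15 for *Supt16*, 0.17 for the unspliced *Supt5* isoform, 0.19 for *Rtf1*, 0.22 for the long *Iws1* isoform and 0.24 for *Paf1*. Up to 0.30 was possible for the short *Iws1* isoform, 0.32 for *Supt6* and 0.35 for the main *Supt5* isoform, the last of which is 27.8% in level. *Leo1* was the exception, with up to 0.71, or 64.0% in level.

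These limits hold the difference between the groups and the spread within them together, so a difference of 0 is possible for each transcript. Of the 12 transcripts, 11 had a limit under 0.5, all but *Leo1*. The same held for 46.4% of all transcripts of the table, and for 76.4% of the 10074 transcripts within the range of levels of the 12. The median limit was 0.20 for the 12 transcripts and 0.31 for those 10074. These counts are a description, with no test.

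**Figure D3:**
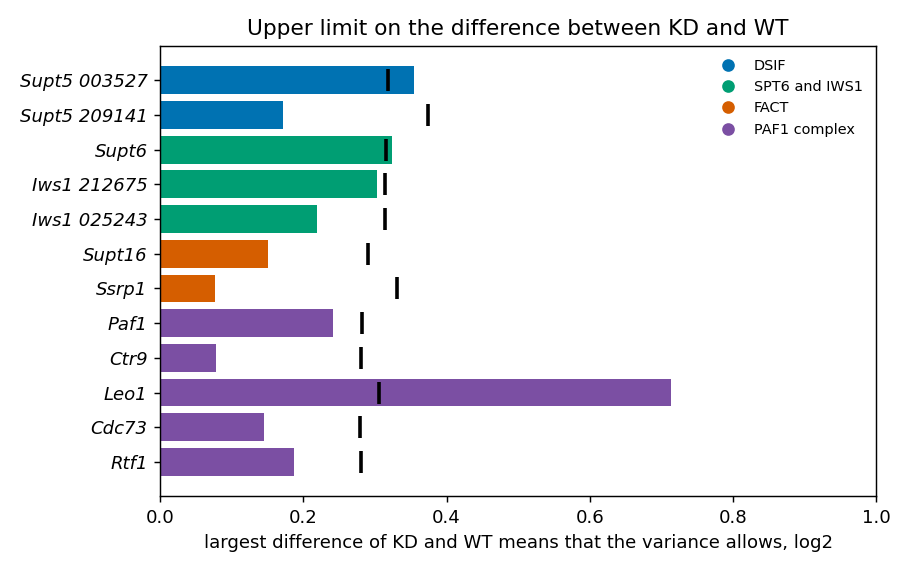
Largest difference between the KD and WT means (log2) that the variance over the 4 libraries allows for each of the 12 transcripts (bars), and the median of the same limit over the 1000 transcripts nearest in mean (black ticks). *Leo1* reaches 0.71, the other 11 stay at or below 0.35, and *Ssrp1* and *Ctr9* stay at 0.08.

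Against transcripts of similar level, 9 of the 12 transcripts had a variance below the middle, and 8 once the variance of read assignment was taken off, when the short *Iws1* isoform moved from 48.2% to 51.3%. The variance of *Ssrp1* was larger than that of 2.2% of the 1000 transcripts nearest in mean, and that of *Ctr9* larger than 3.4%. The unspliced *Supt5* isoform (13.9%), *Cdc73* (16.7%), *Supt16* (17.8%), *Rtf1* (27.5%), the long (30.6%) and short (48.2%) *Iws1* isoforms and *Paf1* (41.1%) were also below their neighbours' median. *Supt6* (52.0%) and the main *Supt5* isoform (57.5%) lay near the middle, and *Leo1* was above 90.9% of its neighbours. The uncertainty of read assignment accounted for 0.525% of the variance of *Leo1*. Whether that spread separates KD from WT or divides libraries of 1 group cannot be told from the mean and variance alone. In bulk RNA of this kind, fewer cells and less RNA per cell cannot be told apart either.

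**Figure D4:**
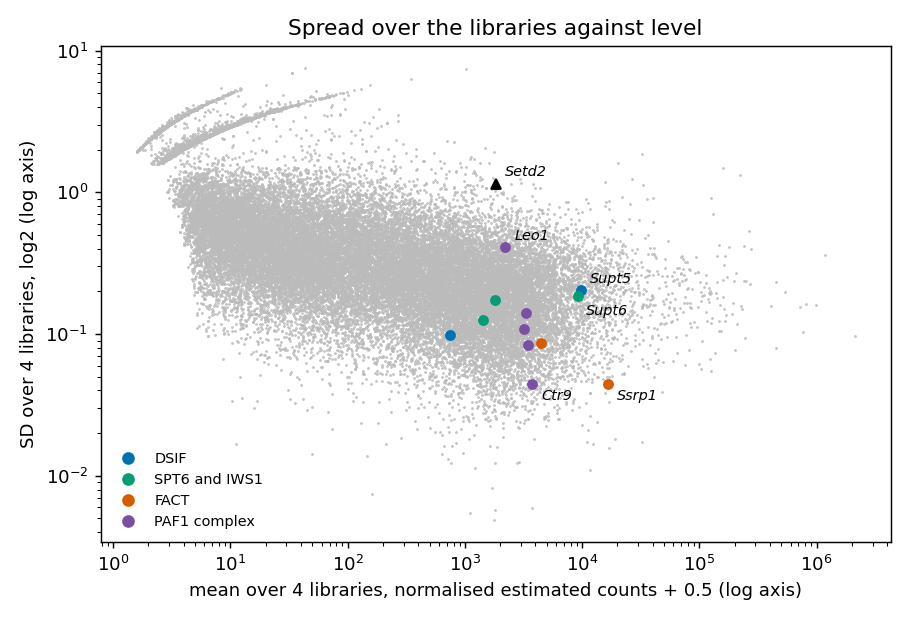
SD over the 4 libraries (log2, log axis) against the mean over the 4 libraries (normalised estimated counts plus 0.5, log axis) for all 34200 transcripts (grey), the 12 transcripts (coloured by complex) and *Setd2* (triangle). *Setd2* has a SD of 1.15 and *Leo1* one of 0.41, while *Ssrp1* and *Ctr9*, at 0.04, lie at the lower edge of the transcripts of their level.

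Other genes of elongation and of histone handling were listed by function, and 64 of the 65 listed genes were in the table. The exception was *Ell3*, of the super elongation complex. The 10 genes had a median of 979.9 counts per kilobase, against 1296 for 63 listed genes with a known length and 376 for all protein-coding genes. Of the 12 RNA polymerase II subunits, 11 had a known length. These ran from 1562 per kilobase for *Polr2b*, the second largest subunit, to 7906 for *Polr2k*, a small subunit shared with the other polymerases, with 2474 for *Polr2d*. Of the PAF1 complex partners and the enzymes of H2B ubiquitination, *Ube2b*, a ubiquitin-conjugating enzyme, was highest (4691), *Ube2a* was in the middle (1259) and *Rnf40*, a subunit of the ubiquitin ligase, was lowest (927).

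Among the genes of pausing, DSIF and NELF, the values ran from 5284 for *Supt4a* through 1333 for *Nelfcd* to 514 for *Nelfa*. *Cdk9*, the kinase of P-TEFb that releases paused polymerase, had 2291 counts per kilobase, the cyclin *Ccnt1* had 1169 and *Hexim1*, which holds P-TEFb inactive, had 702. The kinases of the polymerase tail *Cdk12* (516) and *Cdk13* (530.0) were lower than their cyclin *Ccnk* (1425). In the super elongation complex, *Mllt3* (2166) was highest, *Ell* (603) was in the middle and *Eaf2* (59.4) was lowest. *Elob*, of the elongin complex, had 19043, *Eloa* of the same complex had 804 and *Tcea3*, a TFIIS gene, had 79.9. The other histone chaperones covered the widest range, from 116647 for *Npm1* through 1069.7 for *Hira*, which deposits histone H3.3, to 168 for *Ubn2*. *Ssrp1* was above the median of all 8 lists, and *Cdc73*, by whole length, was below the lowest member of 5 of them.

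**Figure D5:**
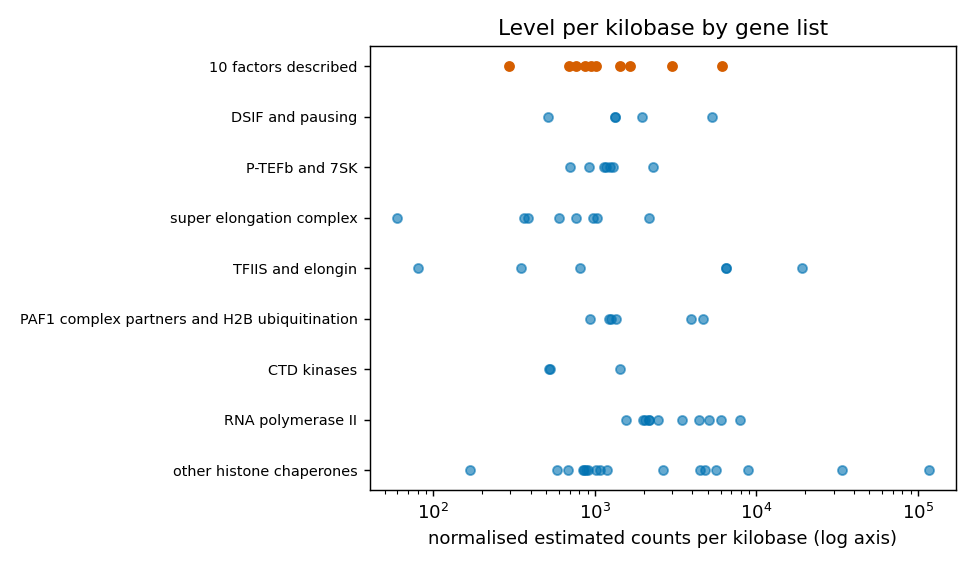
Level in normalised estimated counts per kilobase (log axis) of the 10 genes (orange) and of the listed elongation and chaperone genes (blue), 1 point for each gene as a mean over the 4 libraries. The 10 genes span 295 to 6114, within the range of 59.4 to 116647 of the listed genes.

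The largest possible difference between KD and WT was also computed for the main transcript of each listed gene. It was under 0.5 on the log2 scale for 51 of the 64 genes, with a median of 0.28, beside 46.4% of all transcripts and 76.4% of those in the range of levels of the 12 transcripts. The sets are unlike, since the listed genes count only their highest transcript and cover a wider range of levels than the 12. For the CTD kinases and their cyclin, all 3 were under 0.5 and the median was 0.10, with 0.04 for *Cdk13*. For RNA polymerase II, 8 of 12 were under 0.5, with a median of 0.40. The widest limit among the enzymes of H2B ubiquitination was 0.92 for *Ube2b*, and *Wdr61*, a further subunit of the PAF1 complex, had 0.41. As for the 10 genes, these limits do not say that a difference was present.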

How the data were processed

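Per the labels, polyadenylated RNA of NIH/3T3 cells was sequenced in 2 KD and 2 WT libraries, grouped by the *Setd2* label. The authors trimmed reads with BBDuk (38.22), quantified transcripts with Kallisto (0.44.0) and ran Sleuth (0.30.0). The index, the strand setting and the filter on low counts are not given in the sources used here. The deposited mean is on the natural log scale, of size-factor-scaled estimated counts plus 0.5, over the 4 libraries. Also used were the variance over libraries and the variance of read assignment that Kallisto estimates. The authors' own comparison columns, and their gene table of p-values and q-values, were not used, and the planned limma fit needed single libraries, so no test was run.

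Levels were computed with Python (3.11.15) as the exponential of the mean minus 0.5. The limits from the variance (1.5 SDs for a library, the root of 3 times the variance for KD against WT) were added after the table was seen, and were tested on simulated data. For a gene with 2 transcripts, limits were summed. Positions, lengths and 31-base words came from GENCODE M21 (GRCm38, the build in the submitters' notes), which held 98.6% of the transcript identifiers, and start windows came from RefSeq. All 10 members and *Setd2* are named, with the highest, middle and lowest gene per kilobase of each list, where the middle of an even number is the lower one. *Wdr61* is named beside them, chosen after its value was seen. Members and lists were chosen with earlier results of these data known. One listed gene has no matched length.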

Additional observations from a re-analysis of the deposited data

How the results depend on the processing

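The ratio of the highest to the lowest gene per kilobase was 20.7. With an effective length 200 bases shorter it was 21.9, which left all 10 genes in place. The effective length was not tried for the listed genes, where the main transcripts of *Polr2k* and *Elob* are 489 and 537 bases. With coding length the ratio was 7.37, which left 3 genes in place. By mean level *Ctr9* was then the lowest, close to *Leo1*, and *Cdc73* the third (*Ssrp1* over *Cdc73* 3.64, *Paf1* over *Cdc73* 0.956). The share of the short *Iws1* isoform moved from 55.8% to 80.5% per kilobase. The median of the variance percentiles moved from 29.05 to 31.95 once the variance of read assignment was taken off, and was 29.2 and 28.9 with 500 and 2000 neighbours. The median gene level (3582), the median percentile of levels (84.3, or 83.3 among genes with at least 5 counts) and the *Supt5* share (93.0%, or 93.4% per kilobase) stayed within the spread over the libraries under the alternatives run for them. For single genes, 8 of 10 levels per kilobase moved beyond the spread with coding length and 3 of 10 with effective length, 3 of 10 percentiles of level moved among genes with at least 5 counts, and 1 of 10 levels moved with the highest transcript alone. Of the variance percentiles, 4 of 12 moved without read assignment, and those below the middle went from 9 to 8. Leaving out a library, a block for the replicate number and other pseudocounts for KD against WT were not run. No paired analysis was possible because the columns used carry no replicate numbers. Each limit rests on a mean and a variance of 4 values, and no depth was known.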
